A study of Mus musculus with 8 samples.

Results

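The 8 genes described here, Gas5, Snhg1, Snhg3, Snhg4, Snhg5, Snhg6, Snhg8 and Snhg12, are noncoding genes whose introns carry small nucleolar RNAs (snoRNAs). They were chosen by gene symbol, and all 8 symbols were found among the 23420 entries of the count tables. The RNA came from NIH3T3, an established line of mouse embryonic fibroblasts, in 2 groups of 4 libraries, and the series asks how expression differs between them. The RPRD1B knockdown cells carried short hairpin RNA (shRNA) against RPRD1B, a protein that binds the C-terminal tail of RNA polymerase II, and the scrambled cells carried a scrambled shRNA. Both groups were grown in bovine calf serum and kept under puromycin for at least 1 week. Libraries were deposited as 2 sets, set 2 with replicates 3 and 4 of each group and set 1 with replicates 1 and 2. No source used here says what distinguishes the sets, whether replicates are separate cultures or how many hairpins were used, so p-values measure the spread between libraries, which may be technical.

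A snoRNA host gene is transcribed by RNA polymerase II, and its exons are spliced together while its introns are cut into snoRNAs. Box C/D snoRNAs guide 2′-O-methylation and box H/ACA snoRNAs guide pseudouridylation, mostly of ribosomal RNA. The spliced exons of several hosts begin with a pyrimidine tract like that of ribosomal protein genes, are read by ribosomes without giving a stable protein, and are destroyed by nonsense-mediated decay. Gas5 was first found in growth-arrested NIH3T3 cells, where its spliced RNA accumulates, and human GAS5 RNA has also been described as a decoy of the glucocorticoid receptor.

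Depth ran from 12311442 to 23223139 counts per library, and RPRD1B replicate 4 was the deepest. A count of 0 allows up to 0.129 to 0.244 CPM (counts relative to the library size, on a common scale), a limit that covers counting error only. Rprd1b, the targeted gene, had 22.5 and 22.7 CPM in knockdown cells of set 2, against 39.5 and 40.8 CPM in its scrambled cells, and 26.4 and 28 CPM in knockdown cells of set 1, against 42.3 and 44.4 CPM in its scrambled cells. Its log2 fold change was -0.75 ± 0.07 (SE, adjusted p = 4.14e-14 in edgeR), and exchanging labels within sets (exact permutation, two-sided) gave p = 0.0556, the lowest possible with 36 assignments. Of 10 fibroblast markers 9 were above 1 CPM and Fap was not, with sums of 16235 to 16612 CPM in knockdown cells and 16255 to 16784 CPM in scrambled cells. Single markers moved within these sums: of 9 tested, Col3a1 (0.46), Pdgfra (0.37) and Vim (0.12) rose and Pdgfrb (-0.16) fell with the knockdown on the log2 scale in edgeR. Of 18 markers of other cell types 16 stayed under 1 CPM in every library (all but Cd68 and Tubb3) and 5 were at 0 throughout (Epcam, Krt8, Emr1, Myod1 and Myog), with sums of 5.92 to 8.05 CPM in knockdown cells and 4.46 to 12.1 CPM in scrambled cells.

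The hosts differ in how many snoRNAs they carry. Host positions are those of RefSeq on GRCm38, the assembly that mm10 names, and strands, exons and snoRNAs are those of GENCODE M21. Gas5 (chromosome 1, 161034601 to 161038539, plus strand) holds 8 annotated snoRNAs, each in an intron of a reference transcript with 12 exons. Snhg1, the host in which this gene arrangement was first described (chromosome 19, 8723487 to 8726326, plus strand), also holds 8. Snhg12 (chromosome 4, 132308678 to 132311024, plus strand) holds 4. Snhg3, the host of the U17 snoRNAs Snora73a and Snora73b (chromosome 4, 132351933 to 132353686, minus strand), and Snhg5, the host of Snord50a and Snord50b (chromosome 9, 88521052 to 88522897, minus strand), hold 2 each. Snhg4, Snhg6 (chromosome 1, 9942025 to 9944118, minus strand) and Snhg8 (chromosome 3, 123507552 to 123508336, minus strand) hold 1 each, namely Snora74a, Snord87 and Snora24. All 27 snoRNAs lie within introns. The median distance from the end of the snoRNA to the next exon is 76 bases, and 22 of the 27 lie 60 to 90 bases from it.

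The start sites are shown because a pyrimidine tract at the start is what these hosts are known to share with ribosomal protein genes. RefSeq promoter windows (GRCm38.p6) were used for 6 of the 8 hosts, with a pair of starts for Gas5. Each line runs 5′ to 3′ on the gene's strand for 60 bases, the annotated start is base 41, and capitals mark a tract of C followed by at least 4 C or T that begins within 10 bases of the start.
Gas5, first start (chr1:161034561-161034620): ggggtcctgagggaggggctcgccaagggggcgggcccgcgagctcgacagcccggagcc
Gas5, second start (chr1:161035126-161035185): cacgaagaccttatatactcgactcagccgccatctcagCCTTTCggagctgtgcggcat
Snhg1 (chr19:8723447-8723506): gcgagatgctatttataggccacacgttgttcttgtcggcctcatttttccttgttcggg
Snhg3 (chr4:132353667-132353726): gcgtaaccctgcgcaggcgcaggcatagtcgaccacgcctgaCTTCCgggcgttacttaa
Snhg5 (chr9:88522878-88522937): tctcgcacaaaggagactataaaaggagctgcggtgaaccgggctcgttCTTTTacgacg
Snhg8 (chr3:123508317-123508376): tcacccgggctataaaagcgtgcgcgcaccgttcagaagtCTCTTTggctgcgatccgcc
Snhg12 (chr4:132308638-132308697): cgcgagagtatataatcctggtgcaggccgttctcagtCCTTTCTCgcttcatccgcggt

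Of these 7 windows 5 held the tract (71.4%), against 30.7% of 32851 promoter windows of all genes. The letters TATAAA on the gene's strand, 15 to 45 bases upstream of the start, stood in 2 of the 7 (28.6%), those of Snhg5 and Snhg8, against 2.14% of all windows. These are letter matches and say nothing of use.

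The levels of the 8 hosts spanned a wide range. Together they took 0.101% and 0.0939% of all counts in knockdown cells of set 2, 0.104% and 0.0975% in scrambled cells of set 2, 0.125% and 0.131% in knockdown cells of set 1, and 0.130% and 0.131% in scrambled cells of set 1. Gas5 alone held 59.4% to 68.2% of the counts of the 8 hosts in each library. Per kilobase of reference transcript, the scrambled cells of set 1 had 1774 ± 85.0 CPM of Gas5, 277 ± 16.2 CPM of Snhg1 and 122 ± 6.25 CPM of Snhg8 (SD, n = 2). Snhg4 at 69.6 ± 7.81 and Snhg5 at 67.1 ± 1.05 CPM per kilobase did not differ beyond their spread. Snhg3 followed at 57.2 ± 2.31, and Snhg6 at 48.5 ± 0.985 and Snhg12 at 47.5 ± 0.989 CPM per kilobase again did not differ beyond their spread. The order of the top 3 was kept when the length of all annotated exons was used, at 1046 ± 50.1, 194 ± 11.3 and 90.6 ± 4.64 CPM per kilobase. Below them Snhg3 fell to 25.3 ± 1.02, Snhg6 to 16.9 ± 0.344 and Snhg12 to 12 ± 0.249 CPM per kilobase on that length, well under Snhg4 and Snhg5. The order of the lower means was kept as well, while the size of the gaps between them depended on the length used.

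**Figure D1:**
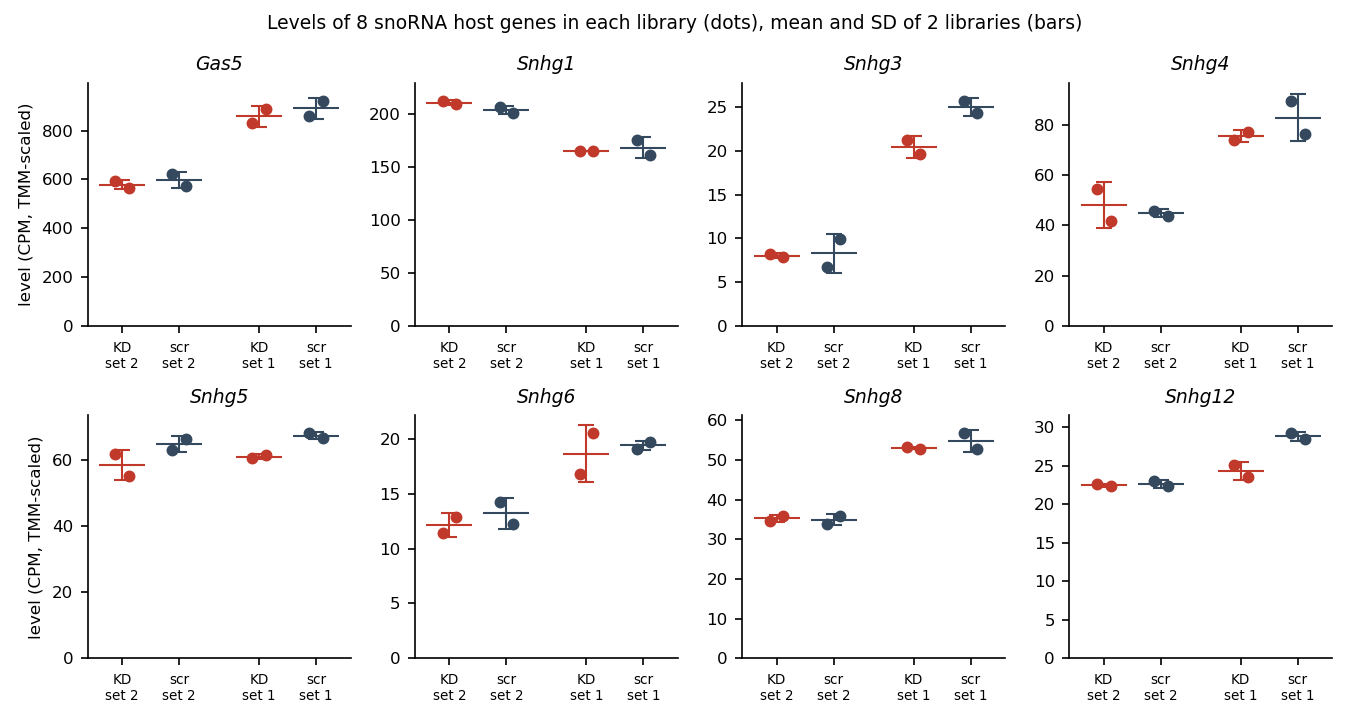
Level of each host gene on a linear axis from 0 (CPM, TMM-scaled), with dots for libraries, long marks for the mean and bars for the SD of 2 libraries. KD is RPRD1B knockdown and scr is scrambled. Knockdown and scrambled cells mostly lie close together within a set. They stand furthest apart for Snhg3 and Snhg12 in set 1, at log2 fold changes of -0.29 and -0.24. Gas5, Snhg3, Snhg4, Snhg6, Snhg8 and Snhg12 lie lower in set 2 than in set 1, Snhg12 by least. Snhg1 lies higher, and Snhg5 overlaps.

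Knockdown of RPRD1B changed none of the 8 host genes past the threshold. Over both sets, with the set as a term, 0 of the 8 passed an adjusted p of 0.05 in edgeR's quasi-likelihood test, against 7.57% of 11723 tested genes (888), and DESeq2 also called 0. A single host, Snhg5, had an unadjusted p under 0.05. The 8 log2 fold changes of knockdown over scrambled cells ran from -0.19 to 0.01 with a median of -0.07, and 7 of the 8 were below 0, beside a median of 0.00 and 49.2% below 0 over all tested genes. No 95% interval reached above 0.11 or below -0.39. All 8 hosts passed the minimum mean count of 10.

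Snhg5 came nearest to a call. It had 61.8 and 55.2 CPM in knockdown cells of set 2, against 63.1 and 66.5 CPM in its scrambled cells. In set 1 it had 60.5 and 61.5 CPM in knockdown cells, against 68.1 and 66.6 CPM in scrambled cells. Both knockdown libraries lay below both scrambled libraries in each set, as for no other host. A separation to the same side in both sets, above or below, was shown by 16.4% of all tested genes. The log2 fold change was -0.15 ± 0.05 (SE), with a 95% interval of -0.25 to -0.05, or -9.83% (unadjusted p = 0.00498, adjusted p = 0.0602 in edgeR). Without RPRD1B replicate 3, whose level was close to that of scrambled replicate 3, the value was -0.18 with an adjusted p of 0.0390, and with upper-quartile scaling it was -0.15 at 0.0486, so the call depends on these choices. Over 15 alternatives the adjusted p ran from 0.0390 to 1 and the sign stayed negative in all of them. Within set 2 alone Snhg5 stood at -0.16 (adjusted p = 0.213) and within set 1 at -0.14 (adjusted p = 0.314) in edgeR.

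Gas5, the most abundant host, had 592 and 565 CPM in knockdown cells of set 2, against 622 and 575 CPM in its scrambled cells. In set 1 it had 829 and 889 CPM in knockdown cells, against 860 and 921 CPM in scrambled cells. The groups overlapped in both sets. Its log2 fold change of -0.05 ± 0.03 (95% interval -0.11 to 0.01, adjusted p = 0.400 in edgeR) has the smallest SE of the 8.

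Snhg1, the second most abundant host, had 212 and 209 CPM in knockdown cells of set 2, against 206 and 201 CPM in its scrambled cells. In set 1 it had 165 CPM in both knockdown libraries, against 175 and 161 CPM in scrambled cells. The knockdown libraries were thus higher in set 2 and inside the scrambled range in set 1. With 2 libraries per group, how many of all tested genes separate within a single set was not counted. The log2 fold change over both sets was 0.01 ± 0.04 (adjusted p = 0.905 in edgeR).

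Snhg3, which carries the U17 snoRNAs, had 8.22 and 7.89 CPM in knockdown cells of set 2, against 6.76 and 9.91 CPM in its scrambled cells. In set 1 it had 21.3 and 19.6 CPM in knockdown cells, against 25.7 and 24.3 CPM in scrambled cells. The groups overlapped in set 2 and did not in set 1, a single-set separation whose share over all tested genes was not counted. The log2 fold change was -0.19 ± 0.10 over both sets (adjusted p = 0.293), -0.04 ± 0.18 in set 2 and -0.29 ± 0.11 in set 1 (unadjusted p = 0.0108, adjusted p = 0.121, all in edgeR).

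Snhg12 carries Snora16a, Snora44, Snora61 and Snord99. It had 22.6 and 22.3 CPM in knockdown cells of set 2, against 23.0 and 22.3 CPM in its scrambled cells. In set 1 it had 25.1 and 23.5 CPM in knockdown cells, against 29.2 and 28.4 CPM in scrambled cells. The groups did not overlap there, again a single-set separation whose share over all tested genes was not counted. The log2 fold change was -0.13 ± 0.08 over both sets (adjusted p = 0.349), -0.02 ± 0.11 in set 2 and -0.24 ± 0.10 in set 1 (unadjusted p = 0.0192, adjusted p = 0.175, all in edgeR).

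The remaining hosts carry 1 snoRNA each. Snhg4 lies on chromosome 18 (35553410 to 35558316, plus strand). It had 54.4 and 41.7 CPM in knockdown cells of set 2, against 45.9 and 43.9 CPM in its scrambled cells, and 73.9 and 77.2 CPM in knockdown cells of set 1, against 89.4 and 76.2 CPM in its scrambled cells. Snhg6 had 11.4 and 12.9 CPM in knockdown cells of set 2, against 14.2 and 12.2 CPM in its scrambled cells, and 16.8 and 20.5 CPM in knockdown cells of set 1, against 19.1 and 19.7 CPM in its scrambled cells. Snhg8 had 34.6 and 35.9 CPM in knockdown cells of set 2, against 33.9 and 35.9 CPM in its scrambled cells, and 53.2 and 52.8 CPM in knockdown cells of set 1, against 56.7 and 52.7 CPM in its scrambled cells. In all 3 the groups overlapped in both sets. Their log2 fold changes over both sets were -0.04 ± 0.07 for Snhg4, -0.08 ± 0.09 for Snhg6 and -0.02 ± 0.06 for Snhg8, with adjusted p-values of 0.826, 0.702 and 0.929 in edgeR.

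Within set 2 no host was called, against 5.19% of tested genes, and within set 1 none was, against 4.86%. At an unadjusted p under 0.05 there was 1 host in set 2 (Snhg5) and 2 in set 1 (Snhg3 and Snhg12). DESeq2 called 0 in each set. In set 2 the fold was below 0 for 5 hosts and in set 1 for 8, at medians of -0.03 and -0.09. The difference of the knockdown effect between the sets was tested as an interaction: 0 of 8 hosts passed in edgeR or DESeq2, none had an unadjusted p under 0.05, and 0.247% of all tested genes were called. Snhg3 had the largest such difference, 0.26 ± 0.21 on the log2 scale (adjusted p = 0.771), with a 95% interval of -0.15 to 0.67.

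In the authors' deposited table, none of the 15 host values read (7 in set 2 and 8 in set 1) had a q under 0.05. It gives Snhg5 a log2 fold change of -0.15 in set 2 (SE 0.09, q = 0.641) and -0.14 in set 1 (SE 0.07, q = 0.465). For Snhg3 the authors' deposited table gives -0.04 in set 2 (SE 0.20, q = 0.989) and -0.27 in set 1 (SE 0.12, q = 0.280).

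**Figure D2:**
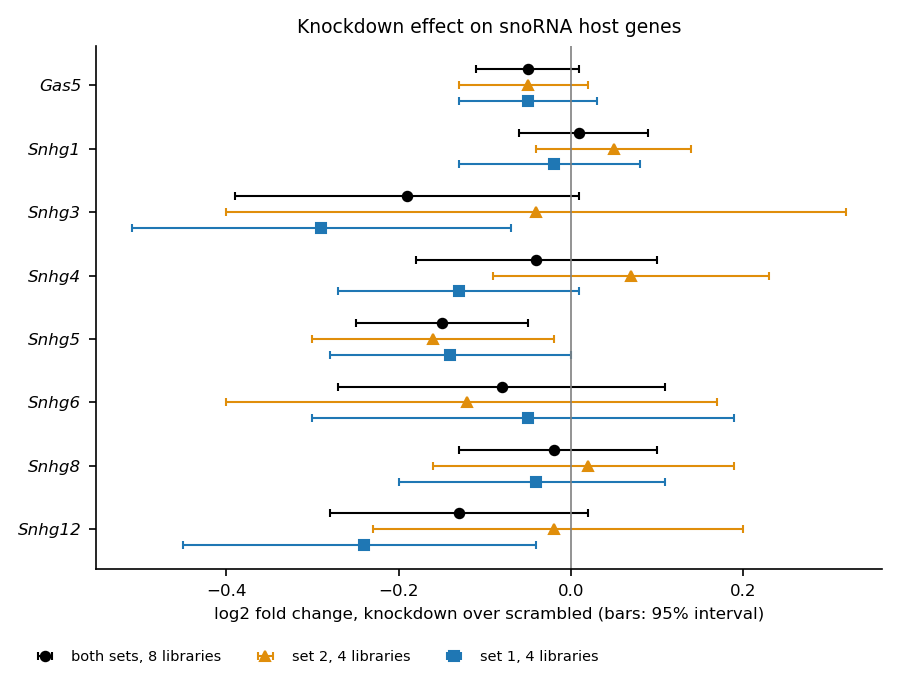
Log2 fold change of each host, RPRD1B knockdown over scrambled cells, with 95% intervals as bars, for both sets together and for each set fitted alone. The interval of Snhg5 over both sets, -0.25 to -0.05, is the one joint interval that leaves out 0, and of the intervals within a set those of Snhg5 in set 2 and of Snhg3 and Snhg12 in set 1 do so.

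To see how the hosts varied among libraries, each library was set against the mean of its set on the log2 CPM scale. The mean deviation of the 8 hosts was 0.02 and -0.04 in knockdown and -0.00 and 0.03 in scrambled libraries of set 2, and -0.08 and -0.05 in knockdown and 0.09 and 0.03 in scrambled libraries of set 1. In set 1 both knockdown libraries thus lay below both scrambled libraries, and in set 2 the groups overlapped. How many of all tested genes separate in a single set was not counted. Of the 28 pairs of hosts, 20 had a correlation of these deviations above 0 over the 8 libraries, with a median of 0.202. The share of such pairs among all tested genes was not counted, so the number is a description. The lowest was that of Gas5 with Snhg8, at -0.600. The genes whose deviations were most like the mean of the hosts, of 10136 genes whose mean count reached 50, were Nfrkb (r = 0.980), Mapk7 (r = 0.979) and Eri2 (r = 0.979) over the same 8 libraries. With so many genes and 8 libraries these correlations are a description, the libraries' depth and group being shared by all genes. None of these 3 genes was called between knockdown and scrambled cells, Eri2 at -0.22 ± 0.08 (adjusted p = 0.0617 in edgeR) being nearest.

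**Figure D3:**
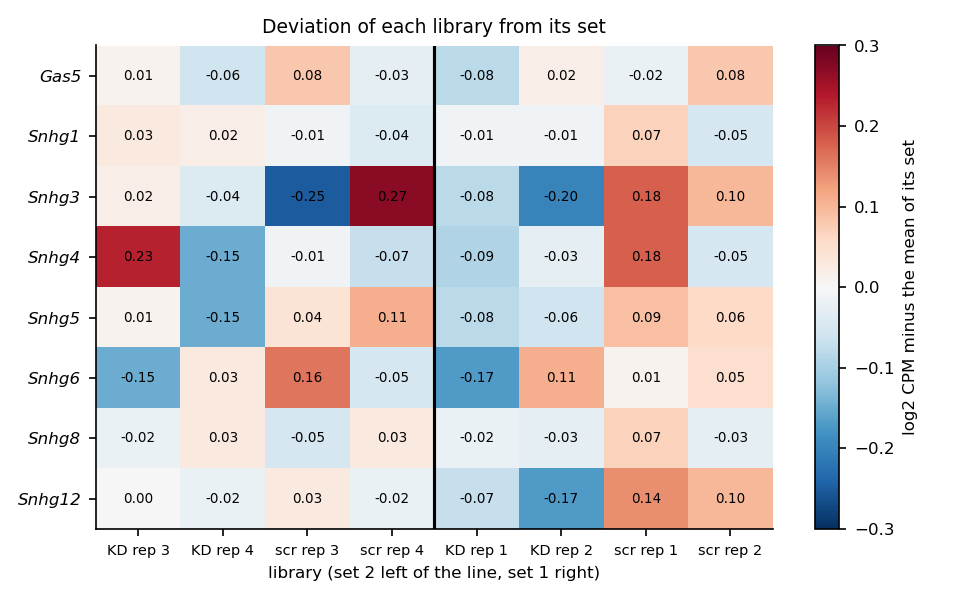
Log2 CPM of each host in each library minus the mean of its set, as a colour and a number; KD is RPRD1B knockdown and scr is scrambled. Snhg5 has its negative values in knockdown libraries only and stands at 0.01 in knockdown replicate 3, while Snhg3 stands at -0.25 and 0.27 in the 2 scrambled libraries of set 2.

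The sets differed far more than the groups did. Set 2 had less RNA of 6 hosts and more of 1 than set 1, so that 7 of 8 were called in edgeR and in DESeq2. Over all tested genes 65.9% were called, 33.0% higher and 32.9% lower in set 2, so a call between the sets is common and the count of called hosts is near it. The direction was uneven for the hosts, with a median log2 fold change of -0.57, beside -0.01 over all tested genes. The 4 libraries of one set did not overlap the 4 of the other for 7 of 8 hosts, against 56.0% of all tested genes. Because the labels do not say what the sets are, a batch and a biological difference between them cannot be told apart.

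Snhg3 differed most. It had 6.76 to 9.91 CPM in set 2, against 19.6 to 25.7 CPM in set 1, a log2 fold change of -1.48 ± 0.10 (adjusted p = 7.55e-21 in edgeR), and 1.20% of tested genes lay lower. Snhg4 had 41.7 to 54.4 CPM in set 2, against 73.9 to 89.4 CPM in set 1, at -0.78 ± 0.07 (adjusted p = 3.15e-10). Both hosts were lower in every library of set 2.

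Gas5, Snhg6 and Snhg8 moved by similar amounts. Gas5 had 565 to 622 CPM in set 2, against 829 to 921 CPM in set 1, at -0.57 ± 0.03 (adjusted p = 1.43e-25 in edgeR). Snhg6 had 11.4 to 14.2 CPM in set 2, against 16.8 to 20.5 CPM in set 1, at -0.57 ± 0.09 (adjusted p = 2.24e-07). The level of Snhg8 was 33.9 to 35.9 CPM in set 2, against 52.7 to 56.7 CPM in set 1, at -0.62 ± 0.06 (adjusted p = 5.67e-15). Snhg12 was lower by less, with 22.3 to 23.0 CPM in set 2, against 23.5 to 29.2 CPM in set 1, at -0.23 ± 0.08 (adjusted p = 0.00644).

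Snhg1 went the other way and Snhg5 was not called. Snhg1 had 201 to 212 CPM in set 2, against 161 to 175 CPM in set 1, at 0.32 ± 0.04 (adjusted p = 8.5e-12 in edgeR). Snhg5 had 55.2 to 66.5 CPM in set 2, against 60.5 to 68.1 CPM in set 1, at -0.06 ± 0.05 (adjusted p = 0.277, 95% interval -0.17 to 0.04). The ratio of Snhg1 to Snhg3 counts within a library, which does not depend on scaling, was 20.3 to 30.4 in set 2, against 6.62 to 8.40 in set 1. All 7 calls held, with their sign, in each of 13 alternatives.

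**Figure D4:**
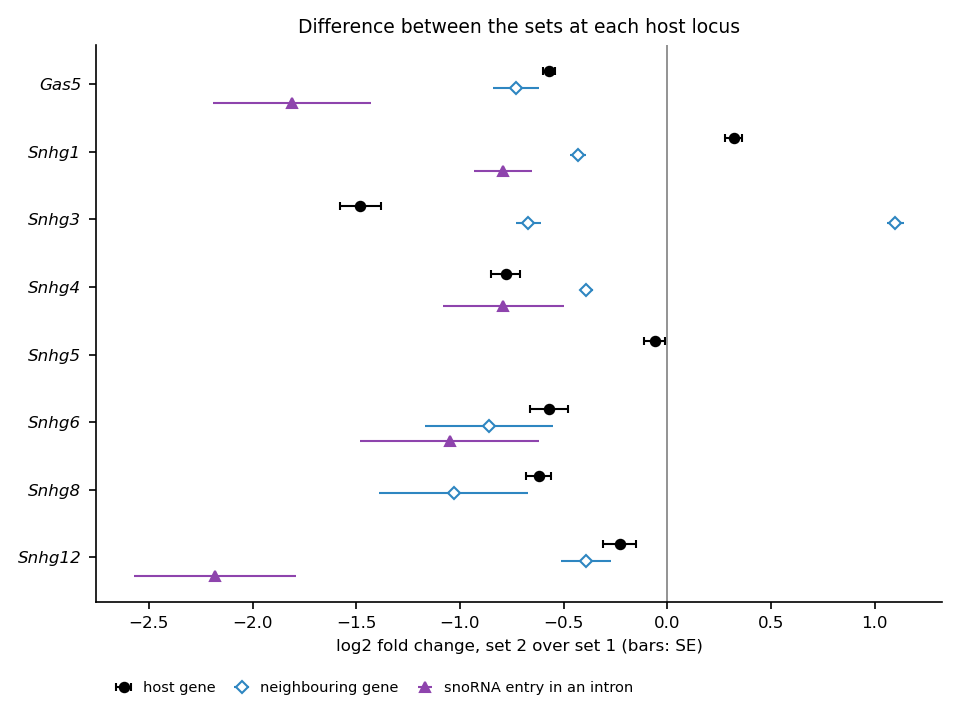
Log2 fold change of set 2 over set 1, with SE as bars, for each host (filled dots), genes overlapping it or within 5 kb (open diamonds) and the snoRNA entries in its introns that had enough counts (triangles). Snhg1 at 0.32 lies right of 0 while its snoRNA Snord22 at -0.79 and its neighbour Slc3a2 at -0.43 lie left of it, and Phactr4 at 1.10 lies right of 0 beside Snhg3 at -1.48.

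Genes beside the hosts were followed because a host can share a start region or reads with them. Of 8 genes followed that overlap a host or lie within 5 kb, 0 were called between knockdown and scrambled cells, against 7.57% of all tested genes. Their log2 fold changes ran from -0.34 ± 0.31 for Mcmdc2 to 0.08 for Prss12 and Trnau1ap. Between the sets all 8 were called, beside 65.9% of all tested genes. Phactr4, a regulator of protein phosphatase 1 and actin whose 3′ end lies 2236 bases upstream of Snhg3 on the same strand, had a log2 fold change of 1.10 ± 0.04 (adjusted p = 1.41e-33 in edgeR), opposite to Snhg3. Rcc1, the exchange factor of the Ran GTPase, which overlaps Snhg3 on the same strand in GENCODE, stood at -0.67 ± 0.06. Slc3a2, an amino acid transporter subunit whose start lies 118 bases from that of Snhg1 on the opposite strand, stood at -0.43 ± 0.04, opposite to Snhg1. Matr3, a nuclear matrix protein near Snhg4, stood at -0.39 ± 0.03, and Trnau1ap, a factor of selenocysteine incorporation near Snhg12, at -0.39 ± 0.12. Zbtb37, which overlaps Gas5, stood at -0.73 ± 0.11. The remaining neighbours, Mcmdc2 beside Snhg6 and Prss12 beside Snhg8, had means under 2 CPM and stood at -0.86 ± 0.31 and -1.03 ± 0.36. The library kit is not described as stranded, so reads from Zbtb37 and Mcmdc2, on the opposite strand, cannot be told apart from those of the hosts they overlap. Rcc1 lies on the same strand as Snhg3, so strand could not separate their reads with any kit.

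The snoRNAs themselves were barely sampled. RNA was purified on a column and sequenced from random-primed cDNA, and all 119 snoRNA entries together held 0.00517% of the counts. Of the 27 snoRNAs in the 8 hosts, 9 were listed under their own symbol and 5 had a mean count of at least 10. A read counted for such an entry can come from the finished snoRNA or from unspliced host RNA, which the counts do not separate. The sequences of 4 of the 5 tested snoRNAs are shown 5′ to 3′ on the strand of the host (GRCm38), because their counts are set beside their hosts below, with capitals for TGATGA (box C) near the 5′ end and CTGA (box D) near the 3′ end; Snord22 had no match for box C.
Snord22, in Snhg1 (chr19:8725866-8725991): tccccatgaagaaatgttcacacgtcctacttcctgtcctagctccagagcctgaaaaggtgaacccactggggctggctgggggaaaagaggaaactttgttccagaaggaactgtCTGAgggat
Snord47, in Gas5 (chr1:161038082-161038158): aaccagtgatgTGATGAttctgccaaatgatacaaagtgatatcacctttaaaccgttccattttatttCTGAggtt
Snord87, in Snhg6 (chr1:9942463-9942549): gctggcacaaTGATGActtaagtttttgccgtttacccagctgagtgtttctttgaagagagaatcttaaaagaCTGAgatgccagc
Snord99, in Snhg12 (chr4:132310691-132310764): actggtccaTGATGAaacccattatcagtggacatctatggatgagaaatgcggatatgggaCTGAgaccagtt

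Snord47, in Gas5, had 7 and 7 counts in knockdown libraries and 7 and 6 in scrambled libraries of set 2, and 22 and 11 in knockdown and 25 and 27 in scrambled libraries of set 1. Snord22, in Snhg1, had 71 and 123 counts in knockdown and 75 and 90 in scrambled libraries of set 2, and 123 and 130 in knockdown and 163 and 128 in scrambled libraries of set 1. Snord99, in Snhg12, had 5 and 5 counts in knockdown and 8 and 4 in scrambled libraries of set 2, and 17 and 26 in knockdown and 28 and 18 in scrambled libraries of set 1. The counts of Snord47 and Snord99 were thus lower in every library of set 2. The count of Snord22 in RPRD1B replicate 4, the deepest library, equalled that in RPRD1B replicate 1. Relative to library size, Snord22 averaged 5.54 ± 0.253 CPM in knockdown and 5.66 ± 1.77 CPM in scrambled libraries of set 2. In set 1 the averages were 8.6 ± 0.0624 and 10.6 ± 1.82 CPM (SD, n = 2 each). None of the 5 tested snoRNAs was called between knockdown and scrambled cells, at log2 fold changes from -0.56 ± 0.37 for Snord47 to -0.18 ± 0.14 for Snord22.

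Between the sets all 5 were lower in set 2. Snord22 stood at -0.79 ± 0.14 (adjusted p = 8.11e-07 in edgeR), while its host Snhg1 stood at 0.32 ± 0.04. Snord99 stood at -2.18 ± 0.39 (adjusted p = 1.19e-06) beside -0.23 ± 0.08 for its host Snhg12, and Snord47 at -1.81 ± 0.38 (adjusted p = 2.62e-05) beside -0.57 ± 0.03 for Gas5. Snora74a stood at -0.79 ± 0.29 (adjusted p = 0.0142) beside -0.78 ± 0.07 for Snhg4, and Snord87 at -1.05 ± 0.43 (adjusted p = 0.0271) beside -0.57 ± 0.09 for Snhg6. Whether a snoRNA differed from its host was not tested. Snora44, in Snhg12, was too rare to test, with 3 and 1 counts in knockdown and 2 and 1 in scrambled libraries of set 2, and 5 and 12 in knockdown and 14 and 18 in scrambled libraries of set 1. Of all 21 tested snoRNA entries, 16 were lower and 1 higher in set 2 (beside 32.9% lower and 33.0% higher among all tested genes), with a median of -0.95. Between knockdown and scrambled cells 0 of the 21 were called, against 7.57% of all tested genes, with a median of -0.14.

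Other host genes were compared between knockdown and scrambled cells too, where 7.57% of all tested genes were called. Of 3 further noncoding hosts tested (Snhg7, Snhg10 and Zfas1, the last listed as 1500012F01Rik), 0 were called between knockdown and scrambled cells, with a median log2 fold change of 0.00. Their values were 0.00 ± 0.09, 0.05 ± 0.24 and -0.03 ± 0.06. Hosts listed under older names were added after the tables were seen, and of the 6 tested 1 was called (16.7%, or 1 gene, against 7.57% of all tested genes). The called host was Snhg18, listed as 0610007N19Rik. It had 29.6 and 34.7 CPM in knockdown and 27.8 and 27.6 CPM in scrambled cells of set 2, and 26.5 and 33.2 CPM in knockdown and 24.5 and 24.6 CPM in scrambled cells of set 1. Both knockdown libraries were above both scrambled libraries in each set, and 16.4% of all tested genes separated to the same side in both sets, above or below. The log2 fold change of Snhg18 was 0.25 ± 0.07 (adjusted p = 0.0188 in edgeR), a call that DESeq2 did not make. Of the others, the lowest was Snhg17, listed as 9430008C03Rik, at -0.24 ± 0.10 (adjusted p = 0.159), followed by Snhg14, listed as C230091D08Rik, at -0.16 ± 0.08, and Snhg15, listed as Gm11974, at -0.08 ± 0.10. Between the sets 4 of the 6 hosts under older names were lower and 0 higher in set 2 (66.7%, beside 65.9% of all tested genes). Their median was -0.37. Of the 3 further noncoding hosts 1 was lower (Snhg7, -0.77 ± 0.09) and 0 were higher, with a median of -0.09.

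A further list held 48 protein-coding genes that carry snoRNAs in introns, many of them genes for ribosomal, translation or nucleolar proteins. Some of them also stand in the lists of snoRNA particle proteins and ribosomal protein genes below. Of the 48, 0 rose and 2 fell with the knockdown (4.17%, against 7.57% of all tested genes), with a median of -0.01. Gnb2l1, the ribosomal scaffold also called Rack1, averaged 981 ± 25.3 CPM in knockdown cells and 1074 ± 54.1 CPM in scrambled cells (SD, n = 4 each), at -0.13 ± 0.03 (adjusted p = 0.00282 in edgeR). Ncl, which codes for nucleolin, averaged 3138 ± 537 CPM in knockdown cells and 3372 ± 533 CPM in scrambled cells, most of that spread being between sets, at -0.11 ± 0.03 (adjusted p = 0.00932). Atp5b at 0.09 (adjusted p = 0.0625) and Rps12 at 0.09 (adjusted p = 0.0906) were not called. Between the sets 3 of the 48 were higher and 29 lower in set 2, 66.7% in all, beside 65.9% of all tested genes, with a median of -0.10.

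Proteins that build snoRNA particles did not pass the test. Of 20 tested genes 0 were called with the knockdown in edgeR, against 7.57% of all tested genes, and 2 had an unadjusted p under 0.05. Their median log2 fold change was -0.03. The smallest p-values were those of Rpap3, an assembly cofactor (-0.16 ± 0.07), Fbl, the methyltransferase fibrillarin (0.10 ± 0.05), Naf1 (0.16 ± 0.09) and Nhp2 (-0.09 ± 0.05), the last a core protein of H/ACA particles. Adjusted p-values of these 4 ran from 0.142 to 0.370.

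Nonsense-mediated decay removes the spliced RNA of several hosts, so its factors were counted. Of 21 tested, 1 rose and 1 fell with the knockdown (9.52%, against 7.57% of all tested genes), with a median of 0.01. Eif4a3, the RNA helicase of the exon junction complex, averaged 164 ± 24.7 CPM in knockdown cells and 147 ± 18.9 CPM in scrambled cells (SD, n = 4 each), at 0.16 ± 0.04 (adjusted p = 0.00221 in edgeR). Nbas, a decay factor that also acts in Golgi transport, averaged 48.3 ± 5.84 CPM in knockdown cells and 55.5 ± 3.17 CPM in scrambled cells, at -0.21 ± 0.06 (adjusted p = 0.0106). Dcp1a at -0.14 (adjusted p = 0.0702) and Rnps1 at 0.09 (adjusted p = 0.475) were not called. Of 8 messenger RNAs known as targets of this decay 0 were called with the knockdown in edgeR (2 at an unadjusted p under 0.05), against 7.57% of all tested genes. Their median was 0.02, with 4 above 0 and 4 below. Upp1, at 1.95 CPM in knockdown and 1.3 CPM in scrambled cells, stood at 0.58 ± 0.28 (adjusted p = 0.225). Gadd45a stood at 0.23 ± 0.11 (adjusted p = 0.227), Atf3 at 0.20 ± 0.13 (adjusted p = 0.443) and Gadd45b at -0.09 ± 0.07 (adjusted p = 0.537, all in edgeR). Between the sets 5 of these 8 were higher and 1 lower in set 2 (75%, beside 65.9% of all tested genes), with a median of 1.43, Atf3 standing at 3.04, Gadd45a at 2.63 and Gadd45b at 1.58, genes that stress also induces.

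Ribosomal protein genes, which share the pyrimidine tract, hardly moved with the knockdown. Of 75 tested 2 rose and 1 fell (4%, against 7.57% of all tested genes), with a median of 0.01. Rps19 stood at 0.14 ± 0.03 (adjusted p = 0.00341), Rps16 at 0.10 ± 0.03 (adjusted p = 0.0397) and Rps27a, which is made as a fusion with ubiquitin, at -0.13 ± 0.04 (adjusted p = 0.0116, all in edgeR). The call of Rps16 was lost in DESeq2 (adjusted p = 0.0546) and with the replicate block (adjusted p = 0.0617 in edgeR). Between the sets 0 were higher and 35 lower in set 2 (46.7% in all, beside 65.9% of all tested genes), with a median of -0.07, smaller in size than the -0.57 of the 8 hosts; the difference between the lists was not tested.

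Glucocorticoid receptor targets were counted because of the role described for human GAS5. The list also held Nr3c1, the gene of the receptor itself. Of 10 tested 2 rose and 1 fell with the knockdown (30%, or 3 genes, against 7.57% of all tested genes), with a median of 0.02. The metallothionein genes, which metals also induce, were those that rose: Mt2 averaged 177 ± 25.1 CPM in knockdown cells and 144 ± 21.3 CPM in scrambled cells (SD, n = 4 each), at 0.30 ± 0.05 (adjusted p = 0.00104 in edgeR), and Mt1 stood at 0.15 ± 0.05 (adjusted p = 0.0324, and 0.0997 in DESeq2, where the call was lost). Errfi1, an inhibitor of the EGF receptor, fell to 705 ± 35.7 CPM in knockdown cells, against 768 ± 31.7 CPM in scrambled cells, at -0.12 ± 0.03 (adjusted p = 0.00571). Dusp1, a phosphatase of MAP kinases, stood at 0.13 ± 0.05 (adjusted p = 0.0777). Gas5 itself, as given above, was not called.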

How the data were processed

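RNA-seq of 8 NIH3T3 libraries was analysed. Per the labels, reads were paired-end with 75 bases, and per the submitters' processing notes the build was mm10; the aligner, counter and annotation were not given in the sources used here. Deposited counts are raw whole numbers per gene, and every test used them. The authors' deposited table of each set also holds a mean signal (counts divided by size factors), a log2 fold change, a score that is its standard error, and a q-value; the log2 fold changes, standard errors and q-values are quoted and not tested. The set 2 entry of Snhg4 in it is not used here. Of the entries, 27 are names turned into dates, kept in totals and not named.

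Genes whose mean count reached 10 were tested with edgeR 4.0.16 (R 4.3.3): quasi-likelihood F test, robust, two-sided, TMM scaling, Benjamini-Hochberg adjustment over all tested genes, called under 0.05. Terms were set and group over 8 libraries, group alone within a set, and their interaction for the difference. CPM are TMM-scaled, and correlations used log2(CPM + 0.5). Alternatives were DESeq2 1.42.0, other scalings and filters, a replicate block, no set term and leaving out each library.

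The 8 genes and the gene lists were chosen with earlier results of these data known. Named genes are the 8 hosts, Rprd1b, neighbours within 5 kb (1 is not reported here), the 4 smallest p-values of each list and the 3 genes most like the hosts' mean. Host positions are from RefSeq on GRCm38, and strands, exons and snoRNAs from GENCODE M21. Start windows are from RefSeq GRCm38.p6 (6 of 8 hosts shown). Entries that GENCODE names as microRNAs were not counted as snoRNAs. Libraries with the same replicate number did not deviate together (correlations of -0.0292 in set 2 and -0.00528 in set 1), so the numbers were not used as pairs.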

Additional observations from a re-analysis of the deposited data

How the results depend on the processing

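Of the fold changes of single hosts recomputed under other settings, 401 kept their sign and their side of the threshold, 28 changed sign and 3 passed the threshold. The count of hosts called with the knockdown over both sets, 0, was 1 with upper-quartile scaling and between 0 and 1 when single libraries were left out, and within set 1 it was also 0 to 1 (Snhg4 without scrambled replicate 2, -0.24, adjusted p = 0.0436). With the replicate block in place of the set term 0 hosts were called, and the block changed no other call of a host. Without the set term 0 were called. DESeq2 called 0 of the 6 hosts under older names, against 1. Values near 0 changed sign when single libraries were left out. Over both sets the ranges were -0.12 to 0.03 for Snhg4, -0.04 to 0.01 for Snhg8 and -0.00 to 0.04 for Snhg1. In set 2 they were -0.11 to 0.27 for Snhg4, -0.03 to 0.05 for Snhg8, -0.11 to 0.01 for Gas5, -0.23 to 0.00 for Snhg6, -0.04 to 0.01 for Snhg12 and -0.31 to 0.24 for Snhg3. In set 1 they were -0.10 to 0.00 for Gas5, -0.21 to 0.08 for Snhg6, -0.08 to 0.04 for Snhg1 and -0.09 to 0.01 for Snhg8. For the difference between sets they were -0.05 to 0.06 for Gas5 (-0.00 in DESeq2), -0.19 to 0.09 for Snhg6, -0.09 to 0.08 for Snhg5 and -0.02 to 0.54 for Snhg3. The cause was not tested. Leaving out 1 of 4 libraries of a set leaves 1 library in a group, which is then assumed to vary like the others. Snhg3 in set 2, at 6.76 to 9.91 CPM, and the snoRNA entries have the fewest counts.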
